A study of Mus musculus with 4 samples.

Results

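Fatty acid genes were described in cultured cortical astrocytes of the mouse, from 4 cultures that gave 1 poly-A RNA-seq library each. The set was 43 genes chosen by name for the synthesis, desaturation, elongation, activation, binding, storage and mitochondrial oxidation of fatty acids, and all 43 symbols were found among the 45703 genes of the deposited count table. All cultures formed 1 group with no contrast, so the comparisons are between genes within a culture and between the cultures. Per the labels' protocols, the glial cells came from frontal cortex of wild-type pups (CD-1, which is outbred; postnatal day 4). The medium held serum, B27 and EGF at 10 ng/ml. Cells went onto new dishes on day 6 in vitro (200000 per dish), and 3 days after that they spent 60 min in serum-free Ham's medium before RNA was taken. The labels name no sorting step and do not say how many mice went into a culture.

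Fatty acids are built in the cytosol from acetyl-CoA by acetyl-CoA carboxylase and fatty acid synthase, and are then lengthened and desaturated in the endoplasmic reticulum. To be used, they are coupled to coenzyme A, carried by binding proteins, stored in lipid droplets, or moved into mitochondria by the carnitine shuttle and shortened there by beta-oxidation. Among brain cells, astrocytes are known as the main site of fatty acid oxidation, and they supply lipids to neurons. FABP7, the brain lipid-binding protein, is a long-used marker of radial glia and astrocytes.

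The libraries held 37300485 to 42369109 counts, so that 1 count was 0.0236 to 0.0268 CPM (counts scaled to a library sum of 1000000). A value with ± is the mean with its SD, n = 4 cultures. The libraries of cultures 1 to 3 differed little, with a chi-square per degree of freedom of 2.11 to 3.17 between them, against 39.4 to 41.1 between culture 4 and each of them. Culture 4 therefore stood apart, and values of culture 4 are given beside those of cultures 1 to 3 where they differ. All 9 astrocyte markers were expressed, meaning that no library had under 1 CPM, and their summed level was 6314 CPM in culture 4 and 7319 to 7499 CPM in cultures 1 to 3. Oligodendrocyte precursor markers summed to 1688 CPM in culture 4 and 1528 to 1577 CPM in cultures 1 to 3. Most of that sum was Olig1 and Olig2 (means 1310 and 241 CPM), while Pdgfra and Cspg4 had 14.6 and 23.9 CPM. Of 7 oligodendrocyte markers 3 were expressed, and Mog and Opalin, markers of mature oligodendrocytes, had 3 counts or fewer in all. Of 5 mural, 4 ependymal and 6 neuron markers, 3, 2 and 3 were expressed. The highest of each list were Acta2, Foxj1 and Stmn2, with means of 1929, 189 and 148 CPM. None of the 5 adipocyte markers was expressed, and Lep, Cidec and Cfd had 3 counts or fewer in all.

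Promoter windows of 300 bases, from 250 before to 50 after an annotated RefSeq start (build GRCm38.p6), were at hand for 37 of the 43 genes. Those below belong to Fabp7, the most abundant gene of the set (chr10:57784673-57784972, plus strand), Elovl5, the leading elongase (chr9:77917115-77917414, plus strand), Fasn, the fatty acid synthase (chr11:120824498-120824797, minus strand), and Hadha, whose start lies head to head with that of its partner subunit Hadhb (chr5:30154931-30155230, minus strand). They run 5′ to 3′ along the gene's strand. Capitals mark the letters CCAAT, searched on both strands (ATTGG on the other strand), and the palindrome CACGTG.
Fabp7: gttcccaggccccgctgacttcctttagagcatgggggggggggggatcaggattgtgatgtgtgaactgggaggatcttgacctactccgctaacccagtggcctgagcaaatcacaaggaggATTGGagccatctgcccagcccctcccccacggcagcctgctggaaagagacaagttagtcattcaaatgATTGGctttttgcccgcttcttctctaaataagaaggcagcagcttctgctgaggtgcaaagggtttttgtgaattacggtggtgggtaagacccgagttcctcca
Elovl5: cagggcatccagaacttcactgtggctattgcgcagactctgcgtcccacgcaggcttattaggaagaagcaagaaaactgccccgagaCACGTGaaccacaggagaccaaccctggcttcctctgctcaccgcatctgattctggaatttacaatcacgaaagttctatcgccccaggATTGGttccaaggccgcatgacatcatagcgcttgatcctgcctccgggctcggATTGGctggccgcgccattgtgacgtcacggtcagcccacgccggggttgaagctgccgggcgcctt
Fasn: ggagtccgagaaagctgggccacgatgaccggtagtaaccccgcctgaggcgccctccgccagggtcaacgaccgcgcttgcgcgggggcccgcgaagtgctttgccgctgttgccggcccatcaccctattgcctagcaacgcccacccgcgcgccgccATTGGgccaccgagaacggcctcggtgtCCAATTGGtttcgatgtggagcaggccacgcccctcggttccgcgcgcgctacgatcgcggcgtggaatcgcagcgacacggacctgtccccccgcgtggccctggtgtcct
Hadha: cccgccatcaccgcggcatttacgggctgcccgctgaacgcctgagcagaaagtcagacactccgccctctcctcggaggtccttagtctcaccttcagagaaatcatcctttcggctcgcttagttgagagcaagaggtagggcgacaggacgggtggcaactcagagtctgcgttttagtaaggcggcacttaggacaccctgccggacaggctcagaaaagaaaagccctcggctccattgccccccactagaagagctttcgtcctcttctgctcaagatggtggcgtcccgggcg
The Fabp7 window held CCAAT on its reverse strand at positions -126 and -56 from the start, and that of Elovl5 held it at -71 and -17, with CACGTG at -161. The Fasn window, whose start lies 619 bases inside the outer end of the gene model, held it at -90, -62 and -59, and the last pair overlap in 1 palindrome. No window was at hand for Scd1, Scd2, Fads1, Fabp5, Cpt1b and Acaa2, so that these genes were not searched. CCAAT was in 22 of the 43 windows of the set (20 of 37 genes), against 37.4% of all 32851 windows of the table. CACGTG was in windows of 3 genes (Elovl4, Elovl5 and Plin2), against 7.15% of all windows. The sterol response element TCACNCCAC was in 1 window, an inner start of Acsl1, against 1.24% of all windows, and DR1, a direct repeat of AGGTCA with any base between the copies, was in none. These are matches of letters and not binding sites.

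The cultures carried transcripts for every step of the pathway. Of the 43 genes, 42 were expressed, against 32.2% of all 45703 genes and 58.1% of the 21843 protein-coding genes. The exception was Fabp3, the heart-type binding protein, at 1.31, 1.46, 1.501 and 0.696 CPM in cultures 1 to 4, which was under the minimum in culture 4 only. The median gene of the set had 119 CPM, against 26.9 CPM for all 14725 expressed genes, and 23 of the 43 reached 100 CPM. Together the set took 1.55% of all counts, with Fabp7 and Scd2 alone holding 43.4% of that share.

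**Figure D1:**
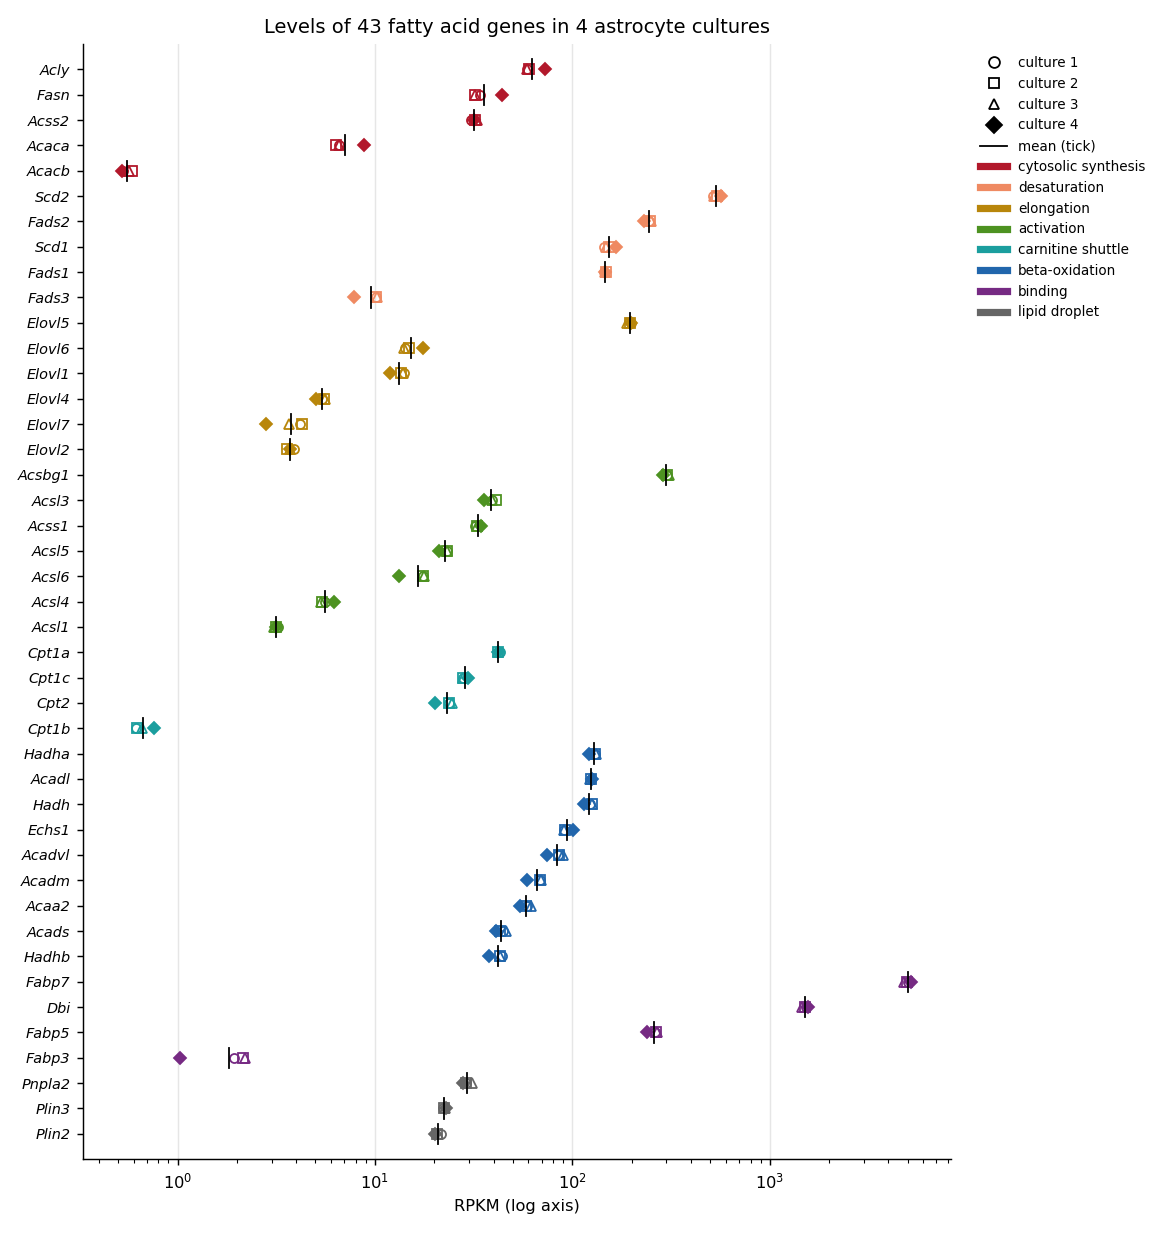
RPKM (CPM per kilobase of combined exon length, log axis) of each of the 43 genes in each of the 4 cultures, grouped by role and sorted by mean within a role. Open symbols are cultures 1 to 3, filled diamonds culture 4 and ticks the means; Fabp7 lies at the right near 4998 RPKM and Acacb and Cpt1b at the left under 1 RPKM.

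The carriers of fatty acids and acyl-CoA were the most abundant group, at a summed 5184 ± 150.1 CPM. Fabp7 (GeneID 12140; chromosome 10, 57784923 to 57788450, plus strand), whose window is printed above, had 3824, 3781, 3658 and 3970 CPM in cultures 1 to 4. At 3808 ± 129 CPM it was the sixth most abundant gene of the table, and at 4998 ± 169 RPKM it ranked 1 of all genes per length. Dbi, the acyl-CoA-binding protein, which is also cut into neuropeptides that act on GABA-A receptors, had 1139, 1131, 1081 and 1162 CPM, and at 1515 ± 46.0 RPKM it ranked 11 per length. Fabp5, a binding protein found in epidermis and in neural progenitors, had 249, 253, 256 and 227 CPM, or 258 ± 13.6 RPKM. Fabp7 was 19.3-fold above Fabp5 per length, at 19.2, 18.7, 17.9 and 21.9-fold in cultures 1 to 4. The counts of Fabp5 were not whole numbers in any library, and those of Fabp7 in 2 libraries, so that reads were shared with other features. Fabp3 stood at 1.83 ± 0.55 RPKM, and its processed pseudogene Fabp3-ps1 had 89 counts against 198 for Fabp3 itself, so that how reads were divided between them matters for that level. Fabp1, Fabp2 and Fabp4, the liver, intestinal and adipocyte members, were looked at as other genes of the pathway. Fabp1 and Fabp2 had no count in any library, which allows up to 0.0804 CPM (3 counts in the shallowest library, counting error only), and Fabp4 had 51 counts, or 0.31 CPM.

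**Figure D2:**
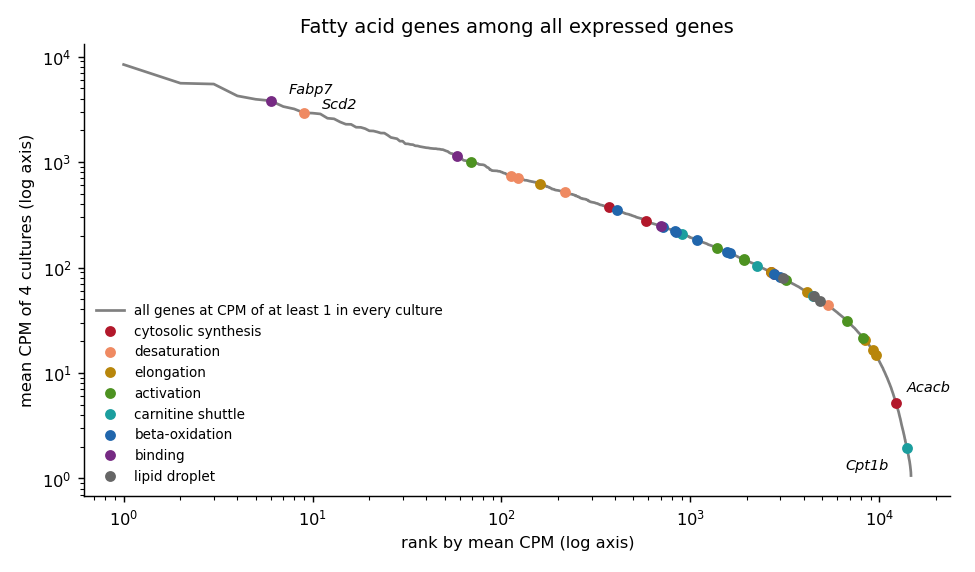
Mean CPM over the 4 cultures against rank (both log axes) for all 14725 expressed genes (grey line), with the 42 expressed fatty acid genes as points coloured by role. Fabp7 and Scd2 sit among the 10 most abundant genes, and Acacb and Cpt1b near the low end.

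Desaturases came second, at a summed 4936 ± 138 CPM. Stearoyl-CoA desaturases place the first double bond in saturated acyl chains, and Scd2 is the form that prevails in mouse brain. Scd2 (GeneID 20250; chromosome 19, 44293676 to 44306864, plus strand) had 2821, 2947, 2854 and 3082 CPM in cultures 1 to 4 and ranked 9 in the table, while Scd1, which lies 87585 bases away on the other strand, had 704, 742, 714 and 803 CPM. Per length, Scd2 was 3.51-fold above Scd1, between 3.41-fold in culture 4 and 3.52 to 3.55-fold in cultures 1 to 3. The counts of both were not whole numbers in any library, so that reads were shared with other features. Scd3 and Scd4, in comparison, had 27.7 ± 2.13 and 14.0 ± 0.59 CPM, also with split counts. Mir5114, a microRNA inside Scd2, was listed with 7962 counts over the 4 libraries, which is 1.69% of the 471051 counts of Scd2.

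The front-end desaturases, which make polyunsaturated fatty acids from dietary precursors, were both abundant. Fads2 had 713, 719, 726 and 674 CPM (244 ± 8.03 RPKM) and Fads1 513, 523, 520 and 517 CPM (146 ± 1.16 RPKM). Fads2 was 1.67-fold above Fads1 per length, with a range of 1.59 to 1.70-fold over the cultures. Fads3, which acts on sphingoid bases, stood far lower at 9.57 ± 1.19 RPKM, 25.6-fold under Fads2. It had 35.6 CPM in culture 4 and 46.1 to 46.9 CPM in cultures 1 to 3, without overlap. The genes form a cluster on chromosome 19, where Fads3 and Fads2 lie tail to tail with 2651 bases between them and the gap from Fads2 to Fads1 is 81373 bases.

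A single gene led the elongases, the enzymes that add carbon pairs to acyl chains. Elovl5, which extends polyunsaturated chains, had 622, 617, 593 and 622 CPM in cultures 1 to 4, or 196 ± 4.37 RPKM, and made up 82.6% of the summed RPKM of the 6 elongases of the set. Elovl6, which extends palmitate, followed at 15.2 ± 1.64 RPKM, and Elovl1, which makes saturated very long chains, at 13.3 ± 0.98 RPKM. Elovl4 stood at 5.38 ± 0.26 RPKM, and Elovl7 and Elovl2 at 3.74 ± 0.66 and 3.73 ± 0.12 RPKM, 2 levels that changed order between cultures. Elovl5 was 13.0-fold above Elovl6 and 52.5-fold above Elovl2, which elongates polyunsaturated chains further. Elovl1 has a combined exon length 2.44 times that of its GENCODE transcript, and with the GENCODE length the lead of Elovl5 over it was 6.81-fold in place of 14.8-fold. The order of Elovl6 and Elovl1 also turned with GENCODE lengths, at means of 15.2 RPKM for Elovl6 and 32.5 RPKM for Elovl1. Elovl1 also overlaps Cdc20 on the opposite strand (21687 counts in all), and no source used here states whether counting used the strand.

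The cytosolic synthesis genes held a summed 833 ± 102 CPM. Fasn, the synthase, had 356, 337, 336 and 458 CPM, and Acly, which makes cytosolic acetyl-CoA from citrate, had 261, 266, 262 and 324 CPM. In both, culture 4 lay above the other 3. Acss2, which makes acetyl-CoA from acetate, had 86.7, 91.03, 92.8 and 90.1 CPM, with culture 4 inside the range of the others. Acaca, the carboxylase that commits acetyl-CoA to synthesis, had 80.9, 78.98, 81.1 and 109 CPM, whereas Acacb, the mitochondria-bound form whose product restrains carnitine palmitoyltransferase, had 4.99, 5.56, 5.36 and 4.98 CPM. Per length Acaca was 12.7-fold above Acacb, at 16.7-fold in culture 4 and 10.9 to 12.4-fold in cultures 1 to 3.

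Of the acyl-CoA synthetases, which activate free fatty acids, Acsbg1 was the most abundant by far. This bubblegum-type enzyme for long and very long chains had 1016, 1015, 1037 and 970 CPM, or 300 ± 8.41 RPKM. Acsl3, found on the endoplasmic reticulum and on lipid droplets, led the long-chain family at 38.8 ± 2.19 RPKM, 1.71-fold above Acsl5 (22.7 ± 1.10 RPKM). Acsl6, which prefers docosahexaenoate, had 16.5 ± 2.21 RPKM, Acsl4, which prefers arachidonate, 5.62 ± 0.40 RPKM and Acsl1 3.16 ± 0.06 RPKM. The place of Acsl6 rested on its length. It was 2.37-fold under Acsl3 with the combined exon length of 7247 bases and 1.18-fold above it with the GENCODE transcript of 2594 bases. Acss1, the mitochondrial acetyl-CoA synthetase, and Acss2 were not told apart, at 33.1 ± 1.01 and 31.8 ± 0.91 RPKM, a ratio of 1.04 that was above 1 in 3 of 4 cultures (exact two-sided sign-flip permutation test, p = 0.25).

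**Figure D3:**
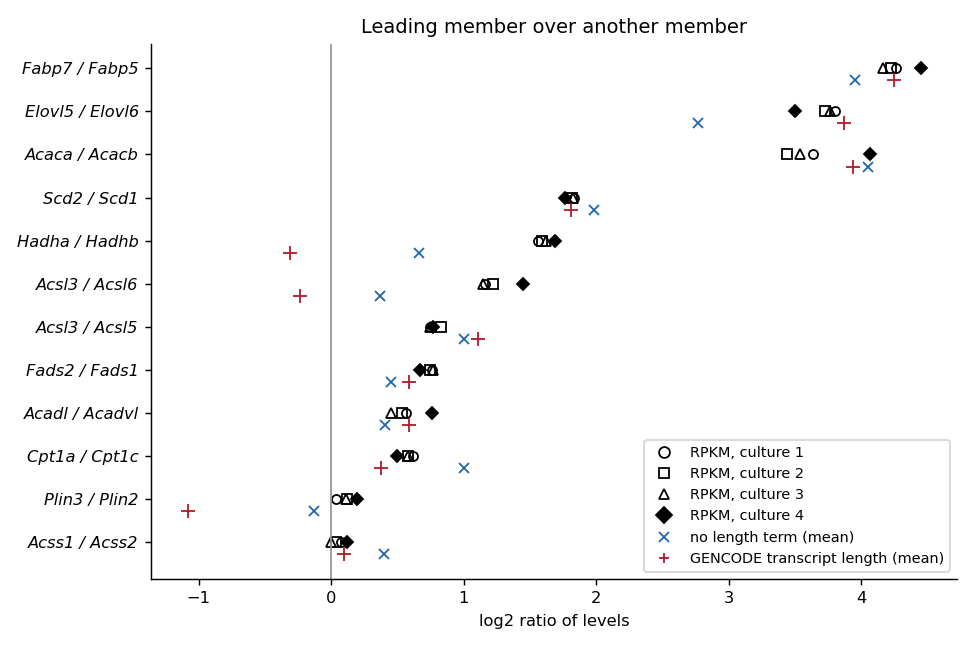
Log2 ratio of the leading member of a family to another member, with circles, squares, triangles and filled diamonds for RPKM in cultures 1 to 4, and crosses and plus signs for the mean without a length term and with GENCODE transcript lengths. The ratios of Fabp7, Elovl5, Acaca and Scd2 stay above 1.5 in all settings, while those of Hadha over Hadhb, Acsl3 over Acsl6 and Plin3 over Plin2 cross 0 with the length used.

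The carnitine shuttle, the gate of long chains into mitochondria, held a summed 369 ± 2.98 CPM, with the smallest SD of the 8 role groups. Cpt1a, the form of liver and most tissues, had 212, 207, 207 and 207 CPM, or 42.2 ± 0.50 RPKM. Cpt1c, a brain form that sits in the endoplasmic reticulum and has little catalytic activity, had 103, 103, 103 and 109 CPM, or 28.5 ± 0.83 RPKM. Cpt1a was 1.48-fold above Cpt1c per length, between 1.41 and 1.53-fold over the cultures. Cpt1b, the muscle form, had 1.93 ± 0.20 CPM, 63.6-fold under Cpt1a per length. It overlaps the model of the lncRNA Gm44502 on the same strand, which was listed with 9.92 times as many counts, so that reads of Cpt1b may have been split or assigned there. Cpt2, which hands the chain back to coenzyme A at the inner membrane, had 47.5 CPM in culture 4 and 55.8 to 58.02 CPM in cultures 1 to 3.

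All 9 beta-oxidation genes were expressed, between 81.9 and 349 CPM and at a summed 1661 ± 59.8 CPM. The acyl-CoA dehydrogenases for successive chain lengths were ordered per length as Acadl (long, 125 ± 1.57 RPKM), Acadvl (very long, 83.7 ± 6.39), Acadm (medium, 66.4 ± 5.15) and Acads (short, 43.8 ± 2.18), and Acadl was first in all 4 cultures, by 1.49-fold over Acadvl. Hadh, the short-chain hydroxyacyl-CoA dehydrogenase, had 122 ± 5.44 RPKM, Echs1, the short-chain enoyl-CoA hydratase, 93.6 ± 4.58 RPKM and Acaa2, the mitochondrial thiolase, 58.3 ± 3.22 RPKM.

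Hadha and Hadhb encode the subunits of the trifunctional protein, which carries out the last steps on long chains. Their gene models lie head to head on chromosome 5 with 272 bases between them, and 228 bases of their promoter windows are shared (chr5:30155003-30155230), so that the Hadha sequence above also holds most of the Hadhb window. Hadha had 355, 353, 357 and 330 CPM and Hadhb 233, 228, 226 and 198 CPM, and in both culture 4 was below the rest. Per length, Hadha was 3.06-fold above Hadhb. That ratio depended on the length and on the counting. The processed pseudogene Hadhb-ps was listed with 15200 counts, 42.8% of the 35512 counts of Hadhb, and with these added to Hadhb, a choice made after seeing the data, the log2 ratio was 1.10 in place of 1.62. With GENCODE transcript lengths (2048 bases for Hadhb, against 5266 in the deposited table) Hadhb was 1.24-fold above Hadha.

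The lipid droplet genes held a summed 181 ± 4.34 CPM. Pnpla2, the lipase ATGL that starts droplet breakdown, had 78.7, 78.8, 84.2 and 75.6 CPM, or 29.2 ± 1.31 RPKM. The droplet coat genes Plin3 and Plin2 lay close together at 22.5 ± 0.30 and 20.8 ± 0.68 RPKM. Plin3 was 1.08-fold above Plin2, in 4 of 4 cultures, but the order turned without a length term (Plin2 1.10-fold above) and with GENCODE lengths (Plin2 2.12-fold above).

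Along the whole order of the 43 genes by RPKM, the ranges of neighbours overlapped in 21 of 42 pairs, and in 16 of these the order was not the same in every culture. Neighbours that could not be told apart were, for example, Cpt1a and Hadhb (42.2 and 42.0 RPKM), and Fasn and Acss1 (35.6 and 33.1 RPKM). The exact two-sided sign-flip permutation test over 4 cultures cannot give a p below 0.13 (rounded). Each leading ratio given above reached this smallest value except the ratio of Acss1 to Acss2, so that none passes a threshold of 0.05.

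The rest of the pathway was read from 89 other genes, of which 75 were expressed. Among regulators the most abundant were Srebf2 (311 ± 10.6 CPM), Srebf1 (202 ± 18.3 CPM), the transcription factors of sterol and fatty acid synthesis, and their escort protein Scap (187 ± 8.34 CPM). Pparg, the adipocyte regulator, was the only 1 of 18 regulators that was not expressed. It was under the minimum in culture 4 only, at 0.307 CPM against 1.83 to 2.05 CPM in cultures 1 to 3. In other synthesis the leaders were Me1 (310 ± 7.80 CPM), which makes NADPH, and the elongation cycle enzymes Hsd17b12 (215 ± 6.69 CPM) and Tecr (161 ± 3.27 CPM). In uptake they were the fatty acid transporters Slc27a1 (152 ± 4.30 CPM) and Slc27a4 (54.3 ± 2.07 CPM) and the thioesterase Acot1 (92.6 ± 11.02 CPM), while Slc27a2 had no count. Of 24 other oxidation genes 23 were expressed, and among the most abundant were Hsd17b4 (259 ± 3.86 CPM), a peroxisomal enzyme, and Acat1 (252 ± 6.0 CPM), which acts on ketone bodies. Of 20 droplet and glyceride genes 15 were expressed, led by the lipase Mgll (225 ± 16.7 CPM), Gpam (132 ± 10.2 CPM) and Lpin2 (64.4 ± 1.52 CPM), and Cidec had 3 counts in all.

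The cultures differed little in these genes, and most of what difference there was came from culture 4. Between cultures, the biological coefficient of variation (edgeR, fitted on 17105 genes) had a median of 0.0706 over the 43 genes, against 0.0941 over all genes fitted. These medians were not matched for level, and the set was more abundant, with a median of 119 CPM against 26.9 CPM for all expressed genes. Without culture 4 it was 0.0238 over the 43 genes and 0.0255 over all. The highest were Fabp3 (0.246), which had the fewest counts, Elovl7 (0.153) and Acsl6 (0.122). The lowest were those of Plin3 (0.0589) and Acadl (0.0591).

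Against the mean of cultures 1 to 3, culture 4 was more than 1.5-fold higher in 0 of the 43 genes, against 2.39% of the 15217 genes whose mean reached 1 CPM. It was more than 1.5-fold lower in 1, Fabp3, against 5.74% of those genes. At a smaller fold limit (5/4) it was higher in 2 and lower in 4 of the 43 genes, against 10.1% and 12.2% of those genes. Culture 4 lay above all 3 others in 15 of the 43 genes and below all 3 in 23, against 47.0% and 35.2% of the 15217 genes. The median log2 ratio of culture 4 to the mean of the others was -0.07 over the 43 genes and 0.03 over all genes. These are values of a single library with no test.

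By role, the summed level in culture 4 was above cultures 1 to 3 for cytosolic synthesis, desaturation and binding. These were 1.26, 1.05 and 1.05-fold of the mean of cultures 1 to 3. It was below them for beta-oxidation, activation, lipid droplet and carnitine shuttle genes, at 0.930, 0.938, 0.965 and 0.987-fold, and within their range for elongation. All of these places were read with raw library sums, and the smaller differences may depend on how the libraries are scaled. The synthesis genes summed to 986 CPM in culture 4 and to 778 to 790 CPM in cultures 1 to 3. Of these 5 genes, 3 lay above all the others, with Acaca 1.36-fold, Fasn 1.33-fold and Acly 1.23-fold higher in culture 4. Beside this and the counts below, 47.0% of the 15217 genes whose mean reached 1 CPM lay above and 35.2% below. The counts by role rest on few genes and were not tested. Acss2 lay within their range, and Acacb just below it, at 4.980 CPM in culture 4 and 4.99 to 5.56 CPM in cultures 1 to 3. Among the 6 elongases 1 lay above, 2 within and 3 below, the one above being Elovl6, at 105 CPM in culture 4 and 83.1 to 88.5 CPM in cultures 1 to 3. The beta-oxidation genes summed to 1572 CPM in culture 4 and to 1683 to 1702 CPM in cultures 1 to 3, and 7 of 9 lay below all the others. Among them Acadm had 121 CPM in culture 4 and 142.1 to 142.5 CPM in cultures 1 to 3, and Acadvl 163 CPM against 185 to 196 CPM. Echs1 went the other way, at 151 CPM in culture 4 and 136.03 to 138 CPM in cultures 1 to 3, and Acadl, at 246 CPM against 239 to 244 CPM, changed sides with another scaling of the libraries (log2 ratio 0.03, and -0.0025 with TMM).

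**Figure D4:**
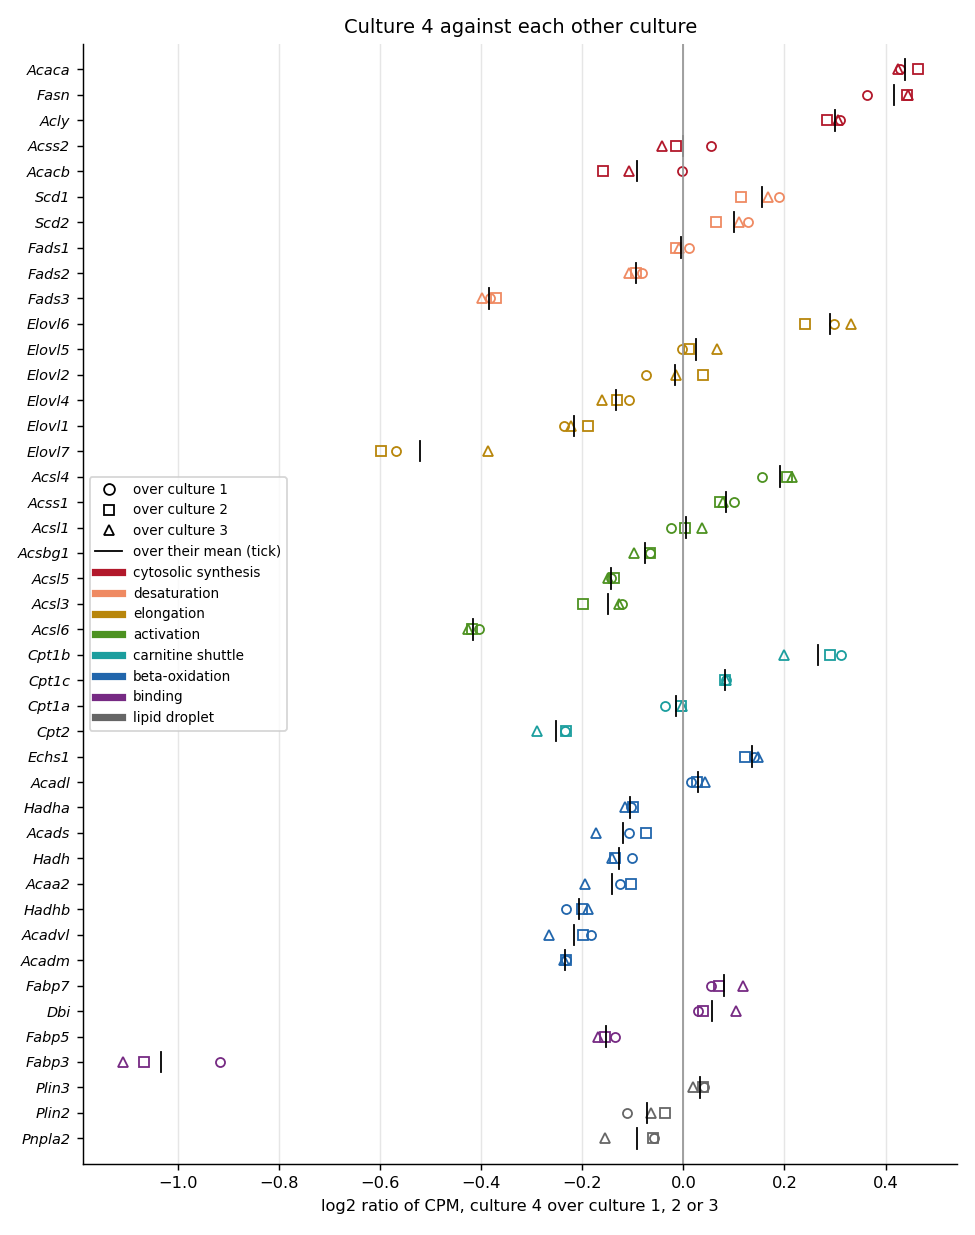
Log2 ratio of CPM in culture 4 to that in culture 1, 2 or 3 (open symbols) and to their mean (ticks), by gene within roles. By their ticks, Acaca, Fasn, Acly, Elovl6 and Cpt1b sit right of 0.2, 7 of the 9 beta-oxidation genes left of 0, and Fabp3 near -1.03.

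Other genes lower in culture 4 were Elovl7, at 15.6 CPM against 20.4 to 23.6 CPM in cultures 1 to 3, Acsl6, at 95.5 CPM against 126 to 128 CPM, and Fads3. In the rest of the pathway, 1 of the 77 genes whose mean reached 1 CPM was more than 1.5-fold higher in culture 4 and 4 were lower, against 2.39% and 5.74% of the 15217 genes. These shares are no larger than those of all genes, and the 5 genes are named for description only, after their values were seen. The higher one was Thrsp, a gene linked to lipid synthesis, at 55.2 CPM in culture 4 and 34.9 to 36.4 CPM in cultures 1 to 3, and the lower ones were Pparg, Cidea, Plin4 and Agpat2, each under 4 CPM in culture 4. Srebf1 had 230 CPM in culture 4 and 190 to 196 CPM in cultures 1 to 3.

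Some marker lists moved with culture 4 and others hardly did. Mural markers summed to 1977 CPM in culture 4 and 1893 to 2011 CPM in cultures 1 to 3, and ependymal markers to 202 against 199.65 to 220 CPM. Neuron markers summed to 171 CPM in culture 4 and 180 to 185 CPM in cultures 1 to 3. Beside the counts of markers below, 47.0% of the 15217 genes whose mean reached 1 CPM lay above the other cultures and 35.2% below. All 5 proliferation markers lay above the other cultures and summed to 1545 CPM in culture 4 and to 1168 to 1189 CPM in cultures 1 to 3. All 5 fibroblast markers (3 of them expressed) and all 7 microglia markers lay below them, at 491 CPM in culture 4 against 1322 to 1407 CPM for fibroblasts, and at 67.03 CPM in culture 4 against 103 to 110 CPM for microglia. Endothelial markers did not move together. Flt1, the only 1 of 5 that was expressed, had 1.53 CPM in culture 4 and 6.06 to 6.58 CPM in cultures 1 to 3, and Cdh5 was also below, while Pecam1 and Tek lay within the range of the others and Cldn5 had 1 count, in culture 4. Of the 9 astrocyte markers, 4 lay above the other cultures and 5 below. Gfap had 780 CPM in culture 4 and 1498 to 1555 CPM in cultures 1 to 3, Aqp4 707 against 904 to 1015 CPM, and Slc1a3 2501 against 2597 to 2693 CPM, with Gja1 and S100b below as well. Slc1a2 had 368 CPM in culture 4 and 285 to 311 CPM in cultures 1 to 3, Aldoc 700.02 against 623 to 632 CPM, Aldh1l1 752 against 721 to 737 CPM and Sox9 162 against 153 to 155 CPM. The fibroblast marker Col1a1 had 72.4 CPM in culture 4 and 570 to 623 CPM in cultures 1 to 3. Their part in the differences of the fatty acid genes was not tested, and in bulk libraries fewer cells of a type and less RNA per cell cannot be told apart.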

How the data were processed

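Poly-A RNA of 4 cultures was sequenced after stranded library preparation. The deposited table holds estimated counts per RefSeq gene with combined exon lengths; 31.7% of the values above 0 were not whole, and 24 of the 43 genes had such a value. The submitters' processing notes list STAR 2.7.2b, featureCounts 1.6.4 (Subread), cutadapt 1.17, bcl2fastq 2.20.0.422 and build GRCm38.p6. No source used here states their settings. From these counts, CPM were computed here with the raw library sums and RPKM with the deposited combined exon length, which covers all annotated exons and makes RPKM too low for genes with long models. The alternative length was that of the longest APPRIS principal transcript in GENCODE M21. Spread was estimated with edgeR 4.0.16 (TMM, intercept only, counts rounded to whole numbers, default filter), and DESeq2 1.42.0 was an alternative; both were run in R 4.3.3. The script was checked on simulated counts. Values for the 4 cultures were computed with Python 3.11.15. The culture number comes from the sample titles. The design text counts 4 biological replicates; whether they came from separate animals is not stated, so that a p-value here reflects the spread of these libraries, which may be technical. Counts of PCR-amplified reads are not independent molecules, so that floors cover counting error only. Members and lists were chosen with earlier results of these data known. Every member is named; of other pathway lists, the 3 most abundant genes and those with 3 counts or fewer, except 1 gene that is not reported here. Promoter sequences are from RefSeq. Other settings were library scaling, minimum level, gene length, treatment of split counts, and leaving out each culture.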

Additional observations from a re-analysis of the deposited data

Results flagged for a closer look

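In 11 of the 43 genes 1 culture stood far from the other 3, by a gap to the nearest value of more than 0.83 of the whole range; 15.2% of the 15217 genes whose mean reached 1 CPM met the same limit, and chance alone gives about 1 in 20. The gap was 0.924 of the range for Acly, 0.928 for Acaca, 0.838 for Fasn, 0.97 for Cpt1c and 0.836 for Echs1, with culture 4 the high one. It was 0.922 for Fads3, 0.917 for Acsl5, 0.944 for Acsl6, 0.981 for Acadm and 0.851 for Hadha, with culture 4 the low one. For Cpt1a it was 0.885, with culture 1 the high one at 212.1 CPM against 206.9 to 207.5 CPM in the others. Of the summed levels, cytosolic synthesis (0.942, culture 4 high), beta-oxidation (0.857, culture 4 low) and elongation (0.868, culture 3 low, at 790 CPM against 820 to 824 CPM) met it as well.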

How the results depend on the processing

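The count of expressed genes of the set was 42 of 43 and lay between 40 and 43 in the settings tried. That of the other pathway genes was 75 of 89 and lay between 68 and 78. Of the leading ratios, that of Plin3 over Plin2 turned its sign without a length term (log2 ratio -0.13) and with GENCODE lengths (-1.08), and those of Hadha over Hadhb (-0.31) and Acsl3 over Acsl6 (-0.24) with GENCODE lengths; the length used is the only difference between these values. Summed TPM were 352 for synthesis, 2780 for desaturation, 606 for elongation, 1071 for activation, 241 for the carnitine shuttle, 1947 for beta-oxidation and 17293 for binding, a different unit from CPM. At a smaller fold limit (5/4), 2 of the 43 genes were higher and 4 lower in culture 4, against 10.1% and 12.2% of the 15217 genes; at 1.5-fold they were 0 and 1. The median log2 ratio of culture 4 was -0.10 with TMM and with DESeq2 size factors, and -0.0587 to -0.0499 without 1 of cultures 1 to 3. Acadl changed sign, to -0.0025 with TMM and -0.0019 with DESeq2. The median coefficient of variation ranged from 0.0238 to 0.0869 when 1 culture was left out, with the low value without culture 4. No paired analysis was possible because all cultures belong to 1 group. Levels near 1 CPM rest on few counts.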
